A study of Mus musculus with 2 samples.

Results

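Kupffer cells, the resident macrophages of the liver, were split by their transcripts of Timd4, and the cells with at least 3 Timd4 UMIs were compared with the cells with 0. A UMI (unique molecular identifier) counts 1 captured transcript. The cells were chosen by measured values within each of 2 barcode libraries apart. A cell had at least 200 genes, at least 4000 UMIs and at most 20% mitochondrial UMIs, and its barcode sequence did not stand in the other library with over 5 times its UMIs. At least 1% of its UMIs fell in the Kupffer genes Clec4f, Cd5l and C1qa, and under 0.05% in the endothelial genes Ptprb, Kdr, Clec4g, Oit3, Gpr182 and Egfl7. Of 18633 barcodes, 3222 met this rule, 940 in library 1 and 2282 in library 2, and 1907 of them fell in the classes compared. Library 1 gave 472 cells with at least 3 Timd4 UMIs (called Timd4-positive) and 103 with 0 (called Timd4-zero), and library 2 gave 959 and 373. The 365 and 950 cells with 1 or 2 Timd4 UMIs are called intermediate.

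The study sequenced F4/80-enriched non-parenchymal liver cells of 1 Spta wt/wt mouse and 1 Spta sph/sph littermate, both untreated males 8 to 10 weeks old. Mice with the sph mutation of the red cell spectrin gene have fragile red cells and hemolytic anemia, and the study compared their liver macrophages with those of the control. The barcodes end in 1 or 2, and nothing in the labels ties a number to a mouse, so no genotype is attached to a library and the genotypes are not compared. Each library is 1 mouse and its cells share that mouse. No test was therefore run, and intervals cover counting error only, not the variation between cells or mice.

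Timd4 encodes Tim-4, a surface receptor that binds phosphatidylserine, the lipid that dying cells expose, and holds them for uptake. In the mouse liver it is known as a mark of long-resident Kupffer cells seeded before birth, while macrophages that arrive later from blood monocytes lack it at first and gain it slowly. Kupffer cells also clear aged red cells, degrade their heme and export the iron, and they take up particles through complement and scavenger receptors.

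The gene lies on chromosome 11 from 46810800 to 46844332 on the plus strand (GRCm38, GENCODE M21). Its upstream region is shown because the whole comparison rests on the transcript that starts there. The 250 bases before the start site that RefSeq gives, chr11:46810549-46810798 on the plus strand (GRCm38.p6), read 5′ to 3′, with the motif matches in capitals:
Timd4 upstream region: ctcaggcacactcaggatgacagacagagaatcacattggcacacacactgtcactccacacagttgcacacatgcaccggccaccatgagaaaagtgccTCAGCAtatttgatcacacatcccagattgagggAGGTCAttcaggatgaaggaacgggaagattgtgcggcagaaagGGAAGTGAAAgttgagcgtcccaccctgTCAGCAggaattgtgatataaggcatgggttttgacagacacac
A composite ETS-IRF element, GGAANNGAAA, of the kind PU.1 and its relative SpiC bind with IRF8, begins 72 bases before the start site, and 2.30% of 32851 mouse upstream regions of this length hold one on either strand. The PU.1 core GGAAGT lies inside the same match and is in 19.7% of the regions. A nuclear receptor half-site, AGGTCA, begins 116 bases upstream (14.0% of regions). The MAF half-site TGCTGA matched on the minus strand at 44 and at 150 bases upstream (16.1% of regions). These are matches of letters and no measure of binding. The levels of the factors that read such elements are given with the transcription factors below.

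Timd4 itself set the classes, so its values describe them. In Timd4-positive cells it stood at 503 CPM (UMIs scaled to 1000000 UMIs of the class) in library 1 and 371 CPM in library 2, with at most 13 and 16 UMIs in 1 cell. Intermediate cells held 226 and 158 CPM. Just inside the threshold, 146 and 328 cells had 3 Timd4 UMIs, and just outside it 193 and 417 cells had 2. Around the Kupffer gene threshold, 28 and 99 cells held 1% to 1.1% of their UMIs in the 3 genes, and 24 and 62 otherwise eligible cells with 0.9% to 1% were left out. The positive share was 50.2% of Kupffer cells (47.0% to 53.5%, exact Clopper-Pearson 95% interval) in library 1 and 42.0% (40.0% to 44.1%) in library 2.

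The classes differed in depth. The median cell held 8739 UMIs among Timd4-positive, 6167 among intermediate and 5546 among Timd4-zero cells of library 1, and 12434, 8389.5 and 6688 in library 2. The Timd4-zero share was lower among deeper cells in both libraries. In library 1 it was 20.5% of cells with 4000 to 6000 UMIs, 9.45% up to 8000, 5.75% up to 12000 and 0.847% (1 of 118 cells) above that. In library 2 it was 39.1%, 21.8%, 11.7% and 5.66% over the same ranges. The Timd4 level of all Kupffer cells moved less across those ranges, between 326 and 394 CPM in library 1 and between 202 and 268 CPM in library 2, where the shallowest range was the lowest. A single Timd4 rate for every cell of a library, applied to each cell's total, gives 77.1 cells with 0 in library 1, where 103 were seen, and 269 in library 2, where 373 were seen. At these depths a count of 0 does not show that a cell lacks Timd4, and the name Timd4-negative is not used here.

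**Figure D1:**
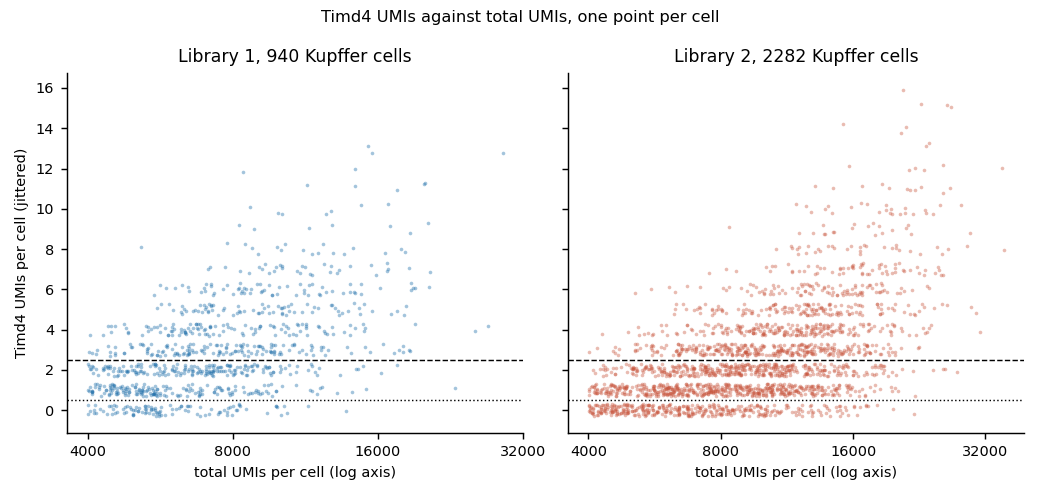
Timd4 UMIs (vertical axis, jittered) against total UMIs (horizontal log axis) of each Kupffer cell, 940 in library 1 and 2282 in library 2. The dashed line is the lower bound of Timd4-positive cells and the dotted line the upper bound of Timd4-zero cells; counts fill every step from 0 upward with no gap, and cells with 0 lie mostly at the shallow end.

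**Figure D2:**
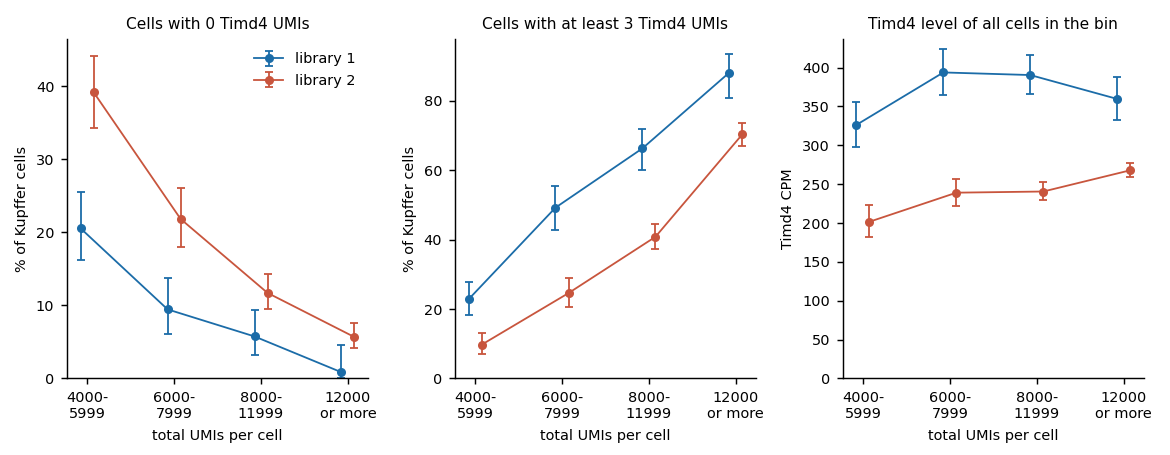
Share of Kupffer cells with 0 Timd4 UMIs (left) and with at least 3 (middle), and Timd4 CPM of all cells (right), by total UMIs per cell and library. Bars are exact 95% counting intervals; the zero share falls from 20.5% to 0.847% in library 1 and from 39.1% to 5.66% in library 2.

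Thinned to 4000 UMIs each, 76.7% of Kupffer cells of library 1 and 61.0% of library 2 held a Timd4 UMI (89.0% and 83.7% unthinned). Of the 77 and 85 endothelial cells that met the same quality rule, a type that should lack the gene, 10.4% and 7.06% did (13.0% and 10.6% unthinned), with median depths of 5050 and 5306 UMIs against 7187 and 9615.5 in Kupffer cells. Beyond counting noise, the spread of Timd4 over thinned Kupffer cells had a coefficient of variation (the square root of the variance less the mean, over the mean) of 0.230 in library 1 and 0.376 in library 2. It was 0.127 and 0.354 for Adgre1, which encodes F4/80, and 0.246 and 0.381 for the Kupffer lectin Clec4f. Hmox1, the heme oxygenase, had 1.17 and 0.491, and the scavenger receptor Marco 2.12 and 0.464. At a mean of 1.52 and 1.01 UMIs a cell, most of the variance of Timd4 was counting noise.

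Depth and RNA quality moved with the classes. Mitochondrial UMIs made up a median of 12.7% of Timd4-positive, 13.1% of intermediate and 15.1% of Timd4-zero cells in library 1, and 10.6%, 12.3% and 12.8% in library 2. The libraries share 955 barcode sequences, which 27 Kupffer cells of library 1 and 490 of library 2 carry. No doublet caller was run, so droplets with several cells remain. Marker sums of other cell types were close in both classes for endothelial cells (352 CPM in Timd4-zero and 337 in Timd4-positive cells of library 1, 246 and 247 in library 2) and stellate cells (87.9 and 92.6, 90.6 and 111). Conventional dendritic cell markers summed to 37.7 and 34.1 CPM in library 1 and to 26.3 and 16.7 CPM in library 2, where the log2 ratio of the sums was -0.66 (-1.05 to -0.25). Hepatocyte markers summed to 1704 and 1621 CPM in library 1 and 1281 and 1108 in library 2. The part of depth, quality and foreign RNA in the gene differences below was not tested. Reweighted and thinned values are given beside many of these differences, but thinning also lowers the counts and changes the classes.

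Across all genes the classes were close. A gene was counted in a library if it reached 50 CPM in either class and 30 UMIs over both, and called if its CPM ratio, Timd4-positive over Timd4-zero, passed 1.5-fold. Library 1 had 51 of 3563 genes higher (1.43%) and 63 lower (1.77%), and library 2 had 19 of 2935 higher (0.647%) and 14 lower (0.477%). Of the 2753 genes counted in both libraries, 2 were past 1.5-fold higher in both, Cox8a and Ndufa12 (0.0726%), and 0 were lower in both (0%). Below the fold, 1795 of the 2753 genes (65.2%) pointed the same way in both libraries, with a correlation across genes of 0.37. This fell to 52.9% and 0.13 once Timd4-zero cells were reweighted to the depths of the Timd4-positive cells of their library, and to 55.5% and 0.078 once every cell was thinned to 4000 UMIs and classed again. Thinning also left fewer UMIs in the Timd4-positive classes, 772000 and 860000 against 4516157 and 12476307 as measured. It moved cells with Timd4 UMIs into the Timd4-zero classes, which grew from 103 and 373 to 219 and 891 cells. The parts of depth, lower counts and changed classes in the fall were not tested. The correlations across genes also depended on 2 cells described below, 1 rich in globin and 1 rich in Ighm. Without them the measured values were 64.9% and 0.43, and the reweighted values 52.2% and 0.053. Genes are not independent replicates, and these values are a description.

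**Figure D3:**
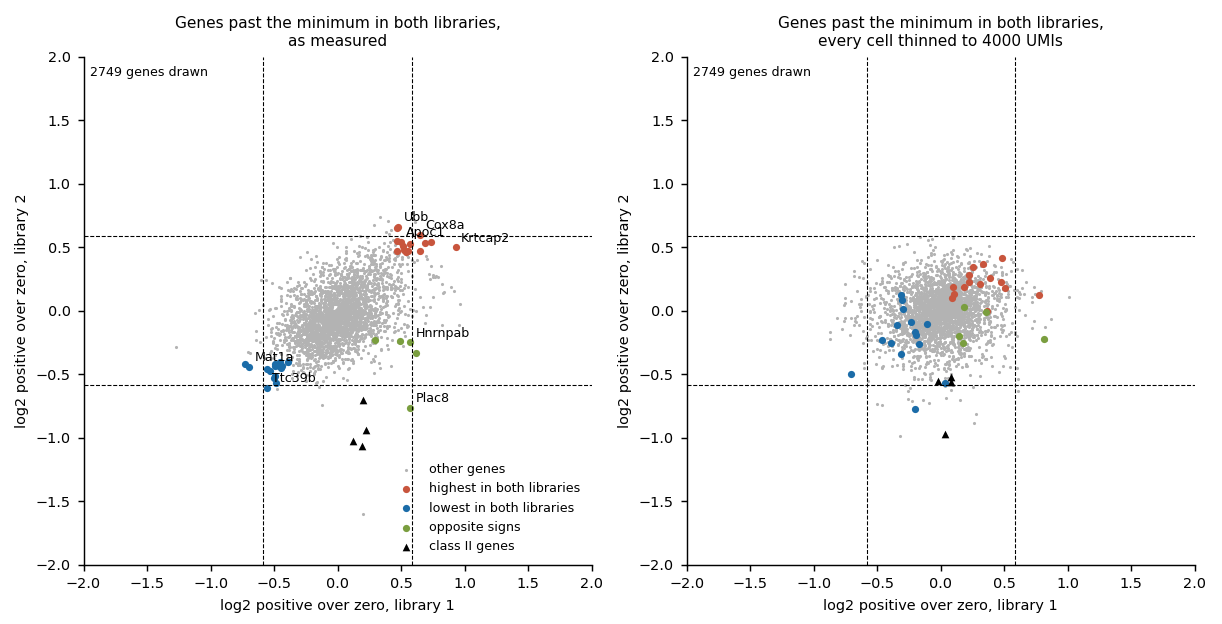
Log2 CPM ratio, Timd4-positive over Timd4-zero, in library 1 (horizontal) and library 2 (vertical) for the genes counted in both, as measured (left) and after thinning every cell to 4000 UMIs (right); dashed lines mark 1.5-fold and 4 globin genes lie outside the axes. The cloud is drawn out along the diagonal at left and nearly round at right, while the class II genes stay low in library 2. Thinning also changed which cells fell in each class and cut the UMIs of the Timd4-positive classes. The correlations in the text are not those of the drawn points alone. They were 0.37 as measured, globin genes included, and 0.078 over the 2791 genes counted after thinning.

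The same genes tracked depth among the intermediate cells, which hold 1 or 2 Timd4 UMIs at any depth. Their Timd4 level was not constant. The deeper cells held 191 and 126 Timd4 CPM in libraries 1 and 2, against 226 and 158 CPM in all intermediate cells. The separate parts of depth and Timd4 level were not tested. Among intermediate cells, the ratio of the deeper to the shallower cells correlated across genes with the Timd4-positive over Timd4-zero ratio at 0.22 in library 1 and 0.64 in library 2. After reweighting the correlations were 0.099 and 0.087, and after thinning 0.017 and 0.20. Ratios were also higher for genes with a short exon length, here the bases covered by all annotated exons of a gene together (Spearman rho -0.22 and -0.36).

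The 15 genes with the largest shared excess in Timd4-positive cells were Apoc1, Atp5j, Cox8a, Elob, Gng5, Gngt2, Ifitm3, Krtcap2, Ost4, Pcolce2, Rpl11, Rpl34, Ssr4, Txn1 and Ubb. They were chosen by these ratios, so the values describe them. In all 15 the intermediate cells lay between the other classes in both libraries. Their median exon length was 1675 bases, against 4482 for all genes counted in both. In intermediate cells, 15 of the 15 in library 1 and 14 in library 2 were also higher in the deeper cells.

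Apoc1, an apolipoprotein carried on circulating lipoproteins (chromosome 7, 19689481 to 19692660, GRCm38), stood at 1299 CPM in Timd4-zero, 1636 in intermediate and 1831 in Timd4-positive cells of library 1, and at 1072, 1280 and 1564 CPM in library 2. The log2 ratio was 0.50 (0.39 to 0.60) and 0.54 (0.49 to 0.60). Thinned, it was 0.33 and 0.37, and reweighted 0.58 and 0.84. Apoc1 was the exception among the 15 in library 2, where the deeper intermediate cells held less of it (-0.14). It was found in nearly every cell, 97.1% of Timd4-zero and 99.4% of Timd4-positive cells of library 1 and 92.8% and 98.6% in library 2.

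Ifitm3, an interferon-induced membrane protein that restricts virus entry, stood at 548, 715 and 858 CPM in Timd4-zero, intermediate and Timd4-positive cells of library 1 and at 519, 591 and 720 CPM in library 2. Its log2 ratio was 0.65 (0.49 to 0.81) and 0.47 (0.39 to 0.55), thinned 0.38 and 0.26, and reweighted 0.48 and 0.23. Gngt2, a G protein gamma subunit, went from 363 to 532 CPM and from 408 to 565 CPM (log2 0.55 and 0.47, thinned 0.47 and 0.23, reweighted 0.49 and 0.37). Atp5j, a subunit of the mitochondrial ATP synthase, went from 108 to 161 CPM and from 184 to 265 CPM (0.57 and 0.53, thinned 0.48 and 0.42, reweighted 0.34 and 0.11). For these 4 genes the thinned counting interval lay above 0 in both libraries.

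Cox8a, a subunit of cytochrome c oxidase (chromosome 19, 7215153 to 7217616), was at 218, 284 and 342 CPM in Timd4-zero, intermediate and Timd4-positive cells of library 1 and at 464, 568 and 702 CPM in library 2. It was past 1.5-fold in both (log2 0.65, 0.40 to 0.91, and 0.60, 0.51 to 0.68) but 0.22 and 0.23 when thinned and 0.55 and 0.13 when reweighted. Ndufa12, a complex I subunit, was named after its values were seen. It stood at 33.0 and 50.3 CPM in library 1, where the interval of the log2 ratio reached below 0 (0.61, -0.04 to 1.33), and at 57.9 and 93.8 CPM in library 2 (0.70, 0.46 to 0.94). Krtcap2 and Ost4, both subunits of the complex that attaches sugars to new proteins in the endoplasmic reticulum, had log2 ratios of 0.93 and 0.50 (reweighted 0.96 and 0.18) and of 0.69 and 0.53 (0.22 and 0.28). Ssr4, of the translocon there, had 0.47 and 0.65 (0.49 and 0.43). The other members, which encode elongin B (Elob), thioredoxin (Txn1), polyubiquitin (Ubb), a collagen-processing enhancer (Pcolce2), a G protein gamma subunit (Gng5) and ribosomal proteins (Rpl11 and Rpl34), lay between 0.47 and 0.73. Reweighted, Gng5 was at 0.14 and 0.14, and Rpl34 at 0.28 in library 1 and -0.02 in library 2, the 1 sign among the 15 that turned.

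Ribosomal, respiratory and mitochondrial-genome genes were described in lists chosen after the values were seen. Of 84 cytosolic ribosomal protein genes, 81 were counted in library 1 and 80 in library 2, 0 of them past 1.5-fold in either direction, with median log2 ratios of 0.21 and 0.23 (0.05 and 0.01 reweighted, 0.03 and 0.08 thinned). All genes had medians of -0.02 and -0.04. Nuclear-encoded genes of the respiratory chain and ATP synthase had medians of 0.22 and 0.27 (0.19 and 0.12 reweighted). Of these, 6 of 72 and 4 of 70 were past 1.5-fold higher and 0 lower. Over all genes, 1.43% and 0.647% were past 1.5-fold higher. Genes of the mitochondrial genome had medians of -0.11 and -0.24, which were -0.15 and -0.02 reweighted and -0.06 and -0.07 thinned.

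The 15 genes with the largest shared deficit in Timd4-positive cells included Atxn2, Hist1h1c, Lmo4, Mat1a, Mcrip1, Ocrl, Plekhm2, Ppp6c, Rnf44, Snx8, Sowahc, Tmem106c, Ttc39b and Ube2g2. Mat1a, which makes S-adenosylmethionine and is known from hepatocytes, stood at 276, 205 and 171 CPM in Timd4-zero, intermediate and Timd4-positive cells of library 1 and at 54.7, 54.0 and 40.3 CPM in library 2 (log2 -0.69 and -0.44, thinned -0.35 and -0.11). Plekhm2, an adaptor that positions lysosomes, went from 273 to 201 CPM and from 281 to 205 CPM (-0.44 and -0.45, thinned -0.19 and -0.19). Lmo4, a LIM-domain transcription cofactor, had -0.49 and -0.52 (thinned -0.31 and -0.34), and Ube2g2, a ubiquitin-conjugating enzyme of protein quality control, had -0.73 and -0.42. The other members named lay between -0.61 and -0.40. Of the 15, 10 kept their sign in both libraries when reweighted and 11 when thinned. Their median exon length was 4444 bases, near that of all genes.

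Of 26 listed resident Kupffer genes, 23 were counted in each library, and 14 and 13 of them had ratios above 0. Their log2 ratios ran from -0.40 to 0.50 in library 1 and from -0.35 to 0.45 in library 2, with medians of 0.02 and 0.13. In either direction 0 passed 1.5-fold. Over all genes 1.43% were higher and 1.77% lower in library 1, and 0.647% and 0.477% in library 2. A count of 0 in lists of this size, here and below, is near that background. Slc40a1, the iron exporter ferroportin, stood at 3418, 3447 and 3442 CPM in Timd4-zero, intermediate and Timd4-positive cells of library 1 and at 3050, 3062 and 3078 CPM in library 2 (log2 0.01 and 0.01). Vsig4, a complement receptor of resident macrophages, was at 2492, 2573 and 2738 CPM and at 1833, 2080 and 2292 CPM (log2 0.14 and 0.32). Adgre1 was at 721 and 794 CPM and at 761 and 906 CPM (0.14 and 0.25), and Csf1r, the receptor for the macrophage growth factor, had 0.19 and 0.16. Folr2, a folate receptor of resident macrophages, had the highest ratio of the list in library 1, going from 344 through 422 to 487 CPM and from 266 through 308 to 343 CPM (0.50, 0.30 to 0.71, and 0.36, 0.25 to 0.48, thinned 0.35 and 0.22). Hpgd, which degrades prostaglandins, had 0.15 and 0.45, and the lectin Clec1b 0.08 and 0.16. Clec4f, which the cell rule used, was at 3979 and 4400 CPM and at 2457 and 2793 CPM. Marco pointed in opposite directions, from 509 to 387 CPM in library 1 (-0.40) and from 12206 to 13334 CPM in library 2 (0.13), or -0.14 and 0.05 thinned; the difference between the libraries was not tested.

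**Figure D4:**
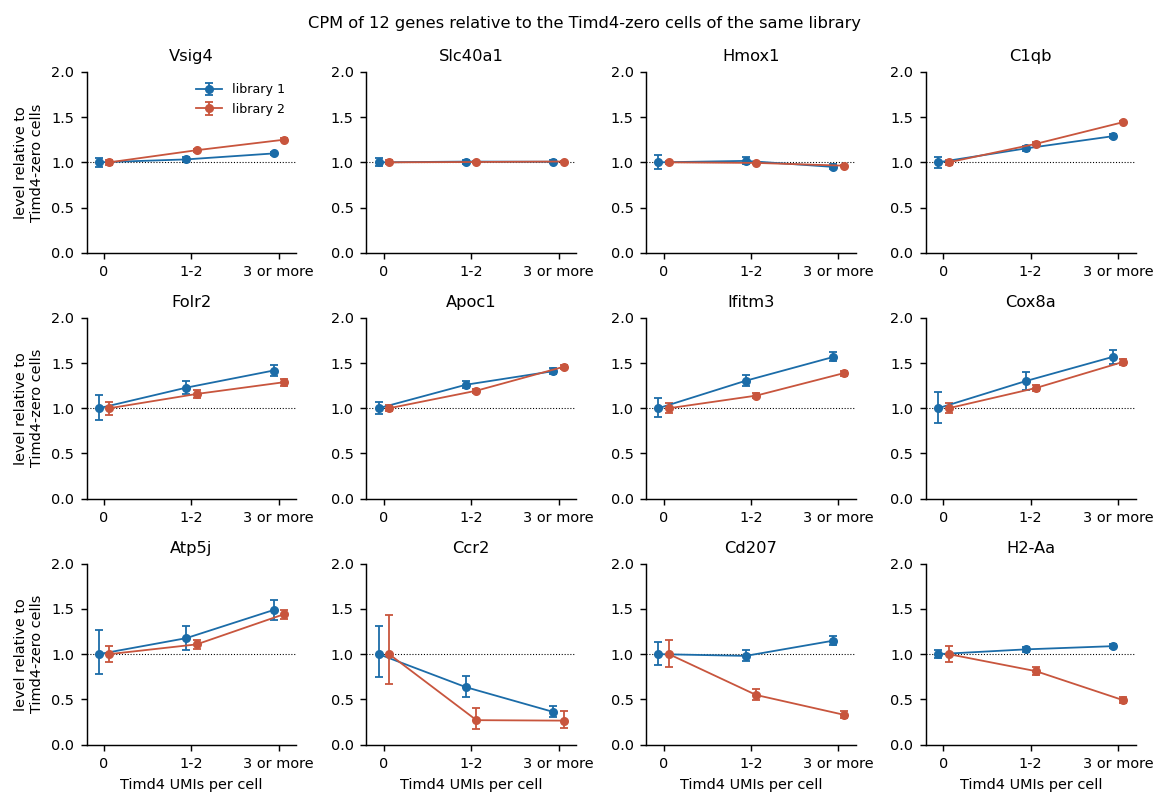
CPM of 12 genes in cells with 0, 1 or 2 and at least 3 Timd4 UMIs, divided by the CPM of the Timd4-zero cells of the same library; bars are exact Poisson 95% intervals divided by the same value. Slc40a1 and Hmox1 lie flat at 1, C1qb to Atp5j lie higher with each class in both libraries, Ccr2 lies lower in both, and Cd207 and H2-Aa lie lower in library 2 but not in library 1.

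Of 26 other receptors for dying cells, their bridges and partners, 16 and 14 were counted, 0 passed 1.5-fold, and the medians were 0.01 and -0.04. With 1.43% higher and 1.77% lower over all genes in library 1, and 0.647% and 0.477% in library 2, a count of 0 in lists of this size is near the background. The receptor kinase Axl stood at 801 and 825 CPM in Timd4-zero and Timd4-positive cells of library 1 and at 970 and 1003 CPM in library 2 (log2 0.04 and 0.05). Its relative Mertk stood at 598 and 582 CPM and at 495 and 459 CPM (-0.04 and -0.11), and Lrp1, another engulfment receptor, had 0.07 and -0.01. C1qb, a chain of the complement starter C1q that coats dying cells, went from 1774 through 2047 to 2288 CPM and from 2009 through 2420 to 2903 CPM (0.37, 0.28 to 0.46, and 0.53, 0.49 to 0.57, thinned 0.20 and 0.28). C1qc had 0.15 and 0.32, and C1qa, which the cell rule used, 0.05 and 0.03. Stab1, a scavenger receptor that also binds phosphatidylserine, went from 112 to 74.4 CPM in library 1 (-0.58, -0.96 to -0.19) and from 19.9 to 20.5 CPM in library 2. None of the other Tim genes or genomic neighbours of Timd4 in a list of 9 reached the minimum. Havcr2 (Tim-3) was at 25.1 and 25.5 CPM and at 35.2 and 34.3 CPM, and Havcr1 (Tim-1) had 0 UMIs in these classes of both libraries.

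Scavenger and complement genes had 18 of 22 counted in each library, 0 past 1.5-fold and medians of 0.10 and 0.10. Mrc1, the mannose receptor, had log2 ratios of 0.07 and -0.10, Msr1 0.15 and 0.05, and Fcna, a lectin that starts complement, 0.17 and 0.24. Clec4n, the lectin Dectin-2, had 0.56 and 0.32 but -0.07 and 0.06 when thinned. Among 11 Fc receptor and Cd47-Sirpa genes, 10 were counted in each library and 0 passed the fold. Fcer1g, their shared signalling chain, went from 1252 to 1474 CPM and from 1760 to 2357 CPM (0.24 and 0.42). Sirpa, the receptor that holds phagocytosis back, went from 815 to 689 CPM and from 903 to 767 CPM (-0.24 and -0.24, thinned -0.19 and 0.06).

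Heme and iron genes, which bear on the red cell uptake the study asked about, were within the fold as measured. Of 23, 18 and 17 were counted, 0 passed 1.5-fold, and the medians were 0.07 and 0.09. Hmox1, which opens the heme ring, stood at 983, 999 and 934 CPM in Timd4-zero, intermediate and Timd4-positive cells of library 1 and at 8210, 8158 and 7909 CPM in library 2 (log2 -0.07, -0.20 to 0.05, and -0.05, -0.07 to -0.03). Thinned, its ratio was -0.06 and -0.07. Reweighted by depth it was 0.60 in library 1, past 1.5-fold, and 0.07 in library 2. Reweighting rests on few deep Timd4-zero cells in library 1. There it put 212 of 3640 genes past the fold upward and 240 downward, against 51 and 63 of 3563 as measured. The 5 highest Timd4-zero cells of library 1 gave 179 of the 626 Hmox1 UMIs of that class. Spic, the transcription factor of iron-recycling macrophages, stood at 124 and 103 CPM and at 344 and 336 CPM (-0.27 and -0.04). Cd163, the receptor for hemoglobin bound to haptoglobin, had 0.17 and 0.10. The ferritin chains Fth1 and Ftl1, which store iron, had 0.12 and 0.39 and 0.16 and 0.43, and stood at -0.05 and 0.01 and at 0.04 and 0.14 when thinned. Both are short transcripts with processed copies in the genome, and how the counting shared reads among the copies is not given in the sources used here.

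**Figure D5:**
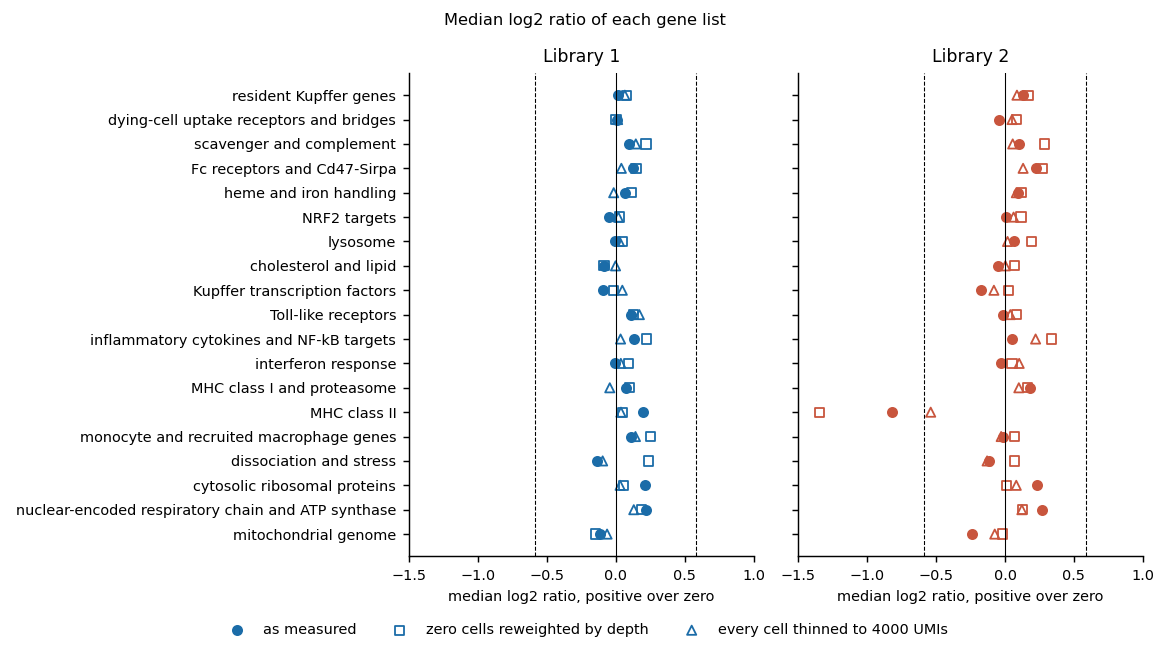
Median log2 ratio, Timd4-positive over Timd4-zero, of 19 gene lists in library 1 (left) and library 2 (right), as measured, with Timd4-zero cells reweighted by depth, and with every cell thinned to 4000 UMIs; dashed lines mark 1.5-fold. The resident Kupffer, uptake and heme lists stay within 1.5-fold, and class II in library 2 alone lies beyond it as measured (-0.82) and reweighted (-1.34).

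Of 25 transcription factors of Kupffer cells, 21 and 16 were counted, 0 passed 1.5-fold, and the medians were -0.09 and -0.17 (-0.02 and 0.03 reweighted, 0.05 and -0.08 thinned). Of the factors that read elements like those found upstream of Timd4, Spi1 (PU.1) went from 374 to 463 CPM and from 287 to 332 CPM (log2 0.31, 0.12 to 0.51, and 0.21, 0.10 to 0.32). Irf8 went from 448 to 400 CPM and from 342 to 299 CPM (-0.16 and -0.20). Maf had -0.17 and -0.15, and Nr1h3, the nuclear receptor LXR alpha of Kupffer cell identity, -0.11 and -0.35 (0.08 and -0.12 thinned).

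Class II antigen presentation genes were past the fold in library 2. Of 10 genes, 6 were counted in each library. In library 1, 0 passed 1.5-fold, 5 of 6 were above 0, and the median was 0.20 (0.05 reweighted, 0.04 thinned). In library 2, 4 of 6 were lower in Timd4-positive cells, 0 were higher, and the median was -0.82 (-1.34 reweighted, -0.54 thinned). Over all genes of library 2, 0.477% were past 1.5-fold lower. H2-Aa, a class II chain, stood at 171, 139 and 83.9 CPM in Timd4-zero, intermediate and Timd4-positive cells of library 2 (log2 -1.03, -1.19 to -0.87) and at 2750, 2894 and 2992 CPM in library 1 (0.12, 0.05 to 0.19). H2-Ab1 had -0.94, H2-Eb1 -1.06 and the invariant chain Cd74 -0.70 in library 2, against 0.22, 0.19 and 0.20 in library 1. A UMI of these 4 genes was held by 70.8% of Timd4-zero, 72.3% of intermediate and 75.8% of Timd4-positive cells of library 2, or by 62.5%, 61.1% and 56.1% once thinned. At least 5000 CPM of them was held by 12 of 373 Timd4-zero, 34 of 950 intermediate and 16 of 959 Timd4-positive cells, while the median cell held 284, 261 and 191 CPM. In library 1, 94 of 103, 323 of 365 and 436 of 472 cells were past that level. Among cells with at least 2% of UMIs in the 3 Kupffer genes (47 Timd4-zero and 123 Timd4-positive), the library 2 median was -0.07. The dendritic cell markers given above were also lower in Timd4-positive cells of library 2, and their part in the class II values was not tested. The difference between the libraries was not tested.

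Cd207 (langerin), known from macrophages of the liver capsule and from Langerhans cells, showed the same pattern. It was at 66.1, 36.2 and 21.8 CPM in Timd4-zero, intermediate and Timd4-positive cells of library 2 (log2 -1.60, -1.87 to -1.32, thinned -0.70, reweighted -2.8). In library 1 it was at 410, 402 and 471 CPM (0.20, thinned 0.15). In library 2 the 5 highest cells gave 83 of the 186 Timd4-zero UMIs and 86 of the 272 Timd4-positive UMIs. In library 2, 37 of 373 Timd4-zero cells (9.92%) and 93 of 959 Timd4-positive cells (9.70%) held a UMI, or 6.70% and 5.53% once thinned to equal depth. In library 1, 73.8% and 87.7% did, or 64.1% and 74.8% thinned. Cx3cr1, another capsule macrophage marker, missed the minimum, at 33.0 and 10.6 CPM in library 1 (-1.63, -2.40 to -0.82) and 1.78 and 1.20 CPM in library 2.

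Ccr2, the chemokine receptor of blood monocytes, was lower in Timd4-positive cells. In library 1 it stood at 81.7, 51.8 and 29.4 CPM in Timd4-zero, intermediate and Timd4-positive cells (log2 -1.47, -1.94 to -0.98). In library 2, where it missed the minimum, it stood at 10.3, 2.78 and 2.73 CPM (-1.92, -2.68 to -1.15). These counts came from few cells, 9 of 103 Timd4-zero and 33 of 472 Timd4-positive cells in library 1 and 8 of 373 and 18 of 959 in library 2, and the highest single cell gave 15 of the 52 Timd4-zero UMIs in library 1 and 13 of 29 in library 2. Without the highest cell of each class, Ccr2 was at 59.1 and 24.9 CPM and at 5.70 and 2.33 CPM. The 5 highest cells gave 45 of the 52 Timd4-zero UMIs in library 1 and 26 of 29 in library 2. Among Timd4-positive cells, the 5 highest gave 68 of 133 and 20 of 34 UMIs. The 5 monocyte markers summed to 199 and 205 CPM in library 1 and to 75.7 and 40.8 CPM in library 2 (log2 -0.89, -1.13 to -0.65), mostly from Plac8 and Ccr2. The other markers were near 0, with Ly6c2 at 0 and 0.221 CPM in library 1 and 3.20 and 1.20 CPM in library 2. Over 25 genes of monocytes and recruited macrophages, 9 were counted in each library, 1 was past 1.5-fold higher and 1 lower in library 1, 0 and 1 in library 2, and the medians were 0.11 and -0.02. All genes had 1.43% higher and 1.77% lower in library 1, and 0.647% and 0.477% in library 2. The gene past the fold upward in library 1 was Ifitm3, and the genes past it downward were Ccr2 in library 1 and Plac8 in library 2 (59.3 to 34.9 CPM, -0.76, or -1.57 reweighted and -0.20 thinned).

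Red cell RNA showed how far 1 cell can carry a class sum. The 6 globin genes summed to 1267 CPM in Timd4-zero and 45.4 CPM in Timd4-positive cells of library 1, where all 4 counted globin genes were past 1.5-fold lower. A single Timd4-zero cell held 796 of the 807 globin UMIs, and without it the class stood at 17.6 CPM. Among Timd4-positive cells of library 1, 1 cell held 102 of the 205 globin UMIs, and without it that class stood at 22.9 CPM. In library 2 the globin sum was 54054 CPM in Timd4-zero and 44859 CPM in Timd4-positive cells, spread over all 373 and all 959 cells, and 0 of 4 genes passed the fold (median -0.27, -0.87 reweighted). Erythroid genes other than globin stood at 305 and 204 CPM in library 2, with 2 of 3 counted genes past 1.5-fold lower (0.477% over all genes). B cell markers went from 41.2 to 127 CPM in library 2, but 1 Timd4-positive cell held 1027 of the 1121 Ighm UMIs, and the marker sum was 44.5 CPM without the highest cell. Markers of T and natural killer, plasmacytoid and megakaryocyte cells stayed below 4 CPM in sum, and neutrophil markers between 11.7 and 31.6 CPM.

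The remaining lists held few genes past the fold. Lysosomal genes had 18 counted in each library and 0 past it (medians -0.01 and 0.06). NRF2 targets had 8 and 9 counted (medians -0.05 and 0.01), interferon response genes 16 and 12 (-0.00 and -0.03) and cholesterol and lipid genes 12 and 13 (-0.08 and -0.05). Inflammatory cytokines and NF-kB targets had 6 and 6 counted (0.13 and 0.05), and class I and proteasome genes 10 and 8 (0.07 and 0.18). These lists also had 0 past the fold in both libraries. Over all genes, 1.43% were past it upward and 1.77% downward in library 1, and 0.647% and 0.477% in library 2. A count of 0 in lists of this size is near that background. Tyrobp, an adaptor of activating receptors, went from 1128 to 1502 CPM and from 1384 to 2009 CPM (log2 0.41 and 0.54, thinned 0.19 and 0.26).

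In the receptor, activation, chemokine, stress and proliferation lists, each gene past the fold was past it in 1 library and not in the other. Cd14, the co-receptor for bacterial endotoxin, was at 76.9 and 127 CPM in library 1 (log2 0.72) and at 64.7 and 79.1 CPM in library 2 (0.29). Il1rn, the interleukin-1 receptor antagonist, was at 25.1 and 50.9 CPM in library 1 (1.02) and at 16.7 and 17.4 CPM in library 2 (0.06). The lipid chaperone Fabp5 was at 81.7 and 128 CPM in library 2 (0.64, thinned 0.25) and missed the minimum in library 1. The chemokine Ccl9 was at 60.4 and 39.0 CPM in library 2 (-0.63, thinned -0.13). Among genes of cell stress and dissociation, Egr1, an immediate early gene, was at 72.2 and 29.9 CPM in library 1 (-1.27, but 0.49 reweighted) and at 52.2 and 42.9 CPM in library 2 (-0.28). The heat shock gene Hspa1a was at 28.8 and 59.1 CPM in library 2 (1.04, but -0.28 thinned). Ube2c, of the mitotic ubiquitin machinery, was at 50.2 and 30.8 CPM in library 1 (-0.71) and at 45.8 and 32.2 CPM in library 2 (-0.51). Mki67, a marker of dividing cells that missed the minimum, was at 34.6 and 43.6 CPM and at 24.9 and 26.9 CPM. Its thinned ratios, -1.62 and -1.10, rest on few UMIs, as the thinned Timd4-positive classes held 772000 and 860000 UMIs of all genes. In the measured classes, 8.74% of Timd4-zero and 7.84% of Timd4-positive cells of library 1 held an Mki67 UMI once thinned. In library 2 the shares were 8.58% and 7.40%.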

How the data were processed

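The values deposited by the authors are raw UMI counts, whole numbers for each gene in each barcode, in 1 matrix that joins the libraries. They were made with Cell Ranger 3.0.1 on GRCm38.p5, per the submitters' processing notes, which also name R 3.6.1. Neither the annotation release nor any depth equalization between libraries is given in the sources used here. Reads of near-identical genes (Hba-a1 and Hba-a2, ribosomal protein copies) cannot be told apart with certainty.

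The matrix holds 26078 genes. Library totals were 33099802 and 56947765 UMIs. Counts were summed per class and library (4516157 UMIs in Timd4-positive and 636825 in Timd4-zero cells of library 1, 12476307 and 2814373 in library 2) and scaled to CPM with exact Poisson 95% intervals. Ratios carry conditional exact 95% intervals. Timd4 was left out. With 1 mouse per library and no map from library to mouse, no test was made. Doublets were not called. The alternatives leave out the 10% deepest cells or cells with at least 0.1% of UMIs in other-lineage markers.

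Reweighting used up to 10 depth bins with at least 5 Timd4-zero cells (6 and 9 bins). Thinning to 4000 UMIs gave 193 and 215 positive and 219 and 891 zero cells. Endothelial cells had at least 0.5% of UMIs in the 6 endothelial genes. Named genes were the 15 highest and 15 lowest in both libraries, ranked by the smaller absolute log2 ratio among those with intervals excluding 0, the 5 largest with opposite signs, and list members. Predicted, mitochondrial, globin and cell-rule genes were left out of the ranking. Some genes that met the rule are not reported here. The members and the lists were chosen with earlier results of these data known, and 3 of the 40 lists after the values were seen. The ratios and their intervals were tested on simulated class sums with known changes. The split of cells, their depths, the reweighting and the thinning were not simulated. Positions and exon lengths came from GENCODE M21 and the upstream sequence from RefSeq. Sums and intervals used scipy 1.17.1 with numpy 2.4.6 and pandas 2.3.3 under python 3.11.15, and plots matplotlib 3.10.9. In all, 16 other settings, and 4 more chosen after seeing the data, were run.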

Additional observations from a re-analysis of the deposited data

Results flagged for a closer look

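For 19 genes the log2 ratios, Timd4-positive over Timd4-zero, pointed in opposite directions in the libraries with counting intervals that excluded 0 in both, among them Marco, Cd207 and 4 class II genes described above. The 5 with the largest smaller ratio are given here, all up in library 1 and down in library 2. The difference between the libraries was not tested. Plac8, a gene of monocytes and other immune cells, was at 118 and 175 CPM in Timd4-zero and Timd4-positive cells of library 1 and at 59.3 and 34.9 CPM in library 2, a gap of 1.33 between the log2 ratios. The gap was 0.95 for the splicing-associated isomerase Ppil2, 0.82 for the RNA-binding protein Hnrnpab, 0.73 for Tsc22d4 and 0.52 for the histone chaperone Set. When every cell was thinned, the library 2 ratio of Hnrnpab was 0.03, so its signs were no longer opposite, while Plac8 was at 0.14 and -0.20.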

How the results depend on the processing

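No paired analysis was possible because the labels give no replicate numbers and each library is 1 mouse. The count past 1.5-fold in both libraries was 2 higher and 0 lower of 2753 genes as measured. It was 1 and 6 of 2712 when reweighted by depth, and 1 and 4 of 2692 with at least 10000 UMIs per cell (5 Timd4-zero cells remained in library 1). It was 10 and 2 of 2756 with at least 5 Timd4 UMIs, and 6 and 13 of 2776 with at most 10% mitochondrial UMIs (14 Timd4-zero cells in library 1). At 20 CPM it was 8 and 2 of 5425, and with no CPM minimum 57 and 53 of 9157. With at least 2% Kupffer UMIs it was 62 and 40 of 2615 (11 Timd4-zero cells in library 1). In that setting 558 genes were higher and 497 lower of 2909 in library 1, and 258 and 292 of 3196 in library 2. The higher count was 4 with ratios centred on the median gene, 5 with 0 endothelial UMIs and 1 with mitochondrial, ribosomal and globin genes out of the total. It was 0 after thinning, with at least 1 Timd4 UMI, without the deepest 10% of cells, without cells holding other-lineage RNA and, added after seeing the data, without barcode sequences found in both libraries; the lower count was 0 in each of these.

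Neither Cox8a nor Ndufa12 was among the higher genes when reweighted (Mrps14), with at least 10000 UMIs (Ndufs3), with at least 2% Kupffer UMIs or with at most 10% mitochondrial UMIs. With at least 5 Timd4 UMIs Cox8a was and Ndufa12 was not. Without the cell rich in globin and the cell rich in Ighm, also added later, the counts were 2 and 0. With those 2 cells out, reweighting gave 3 higher, and 2 lower, Fam46c and Pclaf, and requiring 10000 UMIs gave 1 higher, Ndufs3, and 1 lower, Cd207; the 4 globin genes were no longer among them.

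In library 2 with at least 2% Kupffer UMIs, Ttc39b turned to 0.10 and Plac8 to 0.93. Ost4 in library 1 was at -0.0058 with at least 10000 UMIs and without those 2 cells. Over all settings 45 of 1399 values for named genes changed sign, 7 of them on reweighting and 5 on thinning. Those within the measured counting interval numbered 1099. List medians stayed within the spread of their members in 1010 cases and not in 96. With 103 Timd4-zero cells in library 1, differences under the stated intervals were not detectable at this depth.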
